A study of Homo sapiens with 26 samples.

Results

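The genes described here are 9 signalling genes listed together as blood-type kinases and adaptors of tuft cells. The list is a label, and not all 9 were found in each line below. They are the kinases BMX and MATK, the phospholipase PLCG2, the exchange factor VAV1, the phosphatases PTPN6 and INPP5D, and the adaptors SH2D6, SH2D7 and SKAP2. They were taken by symbol from a named list, out of 19128 genes in the knockout tables and 19117 in the parental table, and all 9 are listed in both. Tuft cells are chemosensory epithelial cells that depend on the transcription factor POU2F3, and the study asked what POU2F3 controls in small cell lung cancer (SCLC) lines that express it.

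The knockout groups were cells infected by lentivirus with guides against POU2F3 (sgPOU2F3) and cells infected with a control guide (sgNeg), in the human SCLC lines NCI-H211, NCI-H526, COR-L311 and NCI-H1048. Cells were collected on day 4 for NCI-H211 and NCI-H1048 and on day 5 for the other pair, so that day and line cannot be told apart. Per the labels, 2 guides against POU2F3 were used in each line, and the deposited tables hold 1 sgPOU2F3 column for both, so each line gives 1 value per group and no spread between guides. The parental groups were the same 4 lines and 10 others (DMS114, DMS79, NCI-H128, NCI-H146, NCI-H446, NCI-H510, NCI-H524, NCI-H69, NCI-H82 and NCI-H889), growing exponentially, with 1 library per line. NCI-H1048 was grown in HITES medium and NCI-H128 in RPMI with serum, while for the remaining lines the labels name either medium, so that medium and line cannot be told apart for NCI-H1048. No label says that separate cultures were sampled, so each line counts as 1 replicate.

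Most of these genes encode parts of the machinery by which receptors of lymphocytes, mast cells and platelets signal after tyrosine phosphorylation. A TEC family kinase such as BMX activates phospholipase C gamma, which cuts a membrane phosphoinositide into a calcium-releasing messenger and diacylglycerol. VAV1 switches on small GTPases, and SKAP2 links receptors to the actin cytoskeleton. PTPN6 (SHP-1), INPP5D (SHIP1) and MATK (CSK-homologous kinase) restrain such signals, and SH2D6 and SH2D7 are small proteins with an SH2 domain, the fold that binds phosphorylated tyrosine. Tuft cells signal through taste receptors, phospholipase C, calcium and the channel TRPM5, and also express several of these blood-type genes.

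POU2F3 belongs to the POU family, whose factors bind the octamer ATGCAAAT, and blood cells drive many of their signalling genes through PU.1, an ETS factor whose core site includes GAGGAAGT. Both motifs were looked for on either strand in RefSeq promoter windows of GRCh38.p14, which run from 250 bases before to 50 after each start. Of the 9 genes, 1 held the octamer, BMX, against 2.19% of 27305 genes. ATGNAAAT, which contains every octamer, was found in the same 1 gene and in 6.19% of all genes. GAGGAAGT was found in 3 of the 9, INPP5D, PTPN6 and VAV1, against 3.15% of all genes. The stretches that hold a match are shown because they separate BMX from the 3 genes with a blood-type motif. All are on the plus strand, 5′ to 3′, with the motif in capitals. The octamer begins 44 bases before 1 of the 2 BMX starts listed, in chrX:15507238-15507297. GAGGAAGT begins 63 bases before the INPP5D start in chr2:233060253-233060312, 11 bases before the VAV1 start in chr19:6772648-6772707, and 24 bases after 1 of the 2 PTPN6 starts listed, in chr12:6946590-6946619.
BMX: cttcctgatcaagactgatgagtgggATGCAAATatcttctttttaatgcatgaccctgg
INPP5D: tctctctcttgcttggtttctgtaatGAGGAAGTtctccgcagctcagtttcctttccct
VAV1: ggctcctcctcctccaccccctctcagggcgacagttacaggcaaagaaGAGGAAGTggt
PTPN6: gcaggatcgagGAGGAAGTggctgattact
A match is a description of letters and not a measured binding site. The other 5 genes had no match to either motif in these windows.

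Levels are given as FPKM, the fragments of a transcript scaled to its length in kilobases and to the mapped fragments of the library, which corrects for length, so that levels can be set beside each other across genes. Tests used log2(FPKM + 1), which understates the change of low genes. The rough depth was 17.8 to 28.2 M fragments (M, mega) in the sgPOU2F3 columns, 9.3 to 15.5 M in the sgNeg columns, 9.8 to 30.9 M in the 4 parental lines and 10.7 to 30.9 M in the 10 others. At these depths 1 fragment on a transcript of 2 kb is worth 0.0162 to 0.0536 FPKM. The share of genes listed at 0 was 13.8% to 15.9% in sgPOU2F3 columns and 18.3% to 21.5% in sgNeg columns, so a gene near 0 is listed above 0 more often in sgPOU2F3. POU2F3 itself stood in sgPOU2F3 cells at 21.3 FPKM in NCI-H211, 204 in NCI-H526, 218 in COR-L311 and 60.8 in NCI-H1048, and in sgNeg cells at 307 FPKM in NCI-H211, 501 in NCI-H526, 272 in COR-L311 and 198 in NCI-H1048. Its transcript was lower in 4 of 4 lines, most in NCI-H211 and least in COR-L311, its log2 ratio averaged -1.77 ± 1.46 (SD, n = 4 lines, limma adjusted p = 0.397), and the protein was not measured in these files. In parental cells POU2F3 was 189 to 387 FPKM in the 4 lines and 0 to 0.608 in the 10 others. In bulk RNA, fewer cells that express a gene and less RNA per cell cannot be told apart, which applies to every ratio below.

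Before any knockout, the 9 genes were present in very different combinations in the 4 lines with POU2F3. COR-L311 and NCI-H526 had an FPKM of at least 1 for 9 of 9 genes, NCI-H1048 for 8 and NCI-H211 for 5. In the 10 other lines the count ranged between 1 in NCI-H446 and 4 in NCI-H510 and NCI-H524. The highest of the 14 levels was in 1 of the 4 lines for 8 of the 9 genes, and in COR-L311 for 5 of them. PTPN6 was the exception, with its highest level in NCI-H146. The heatmap of levels in the parental lines shows these combinations.

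**Figure D1:**
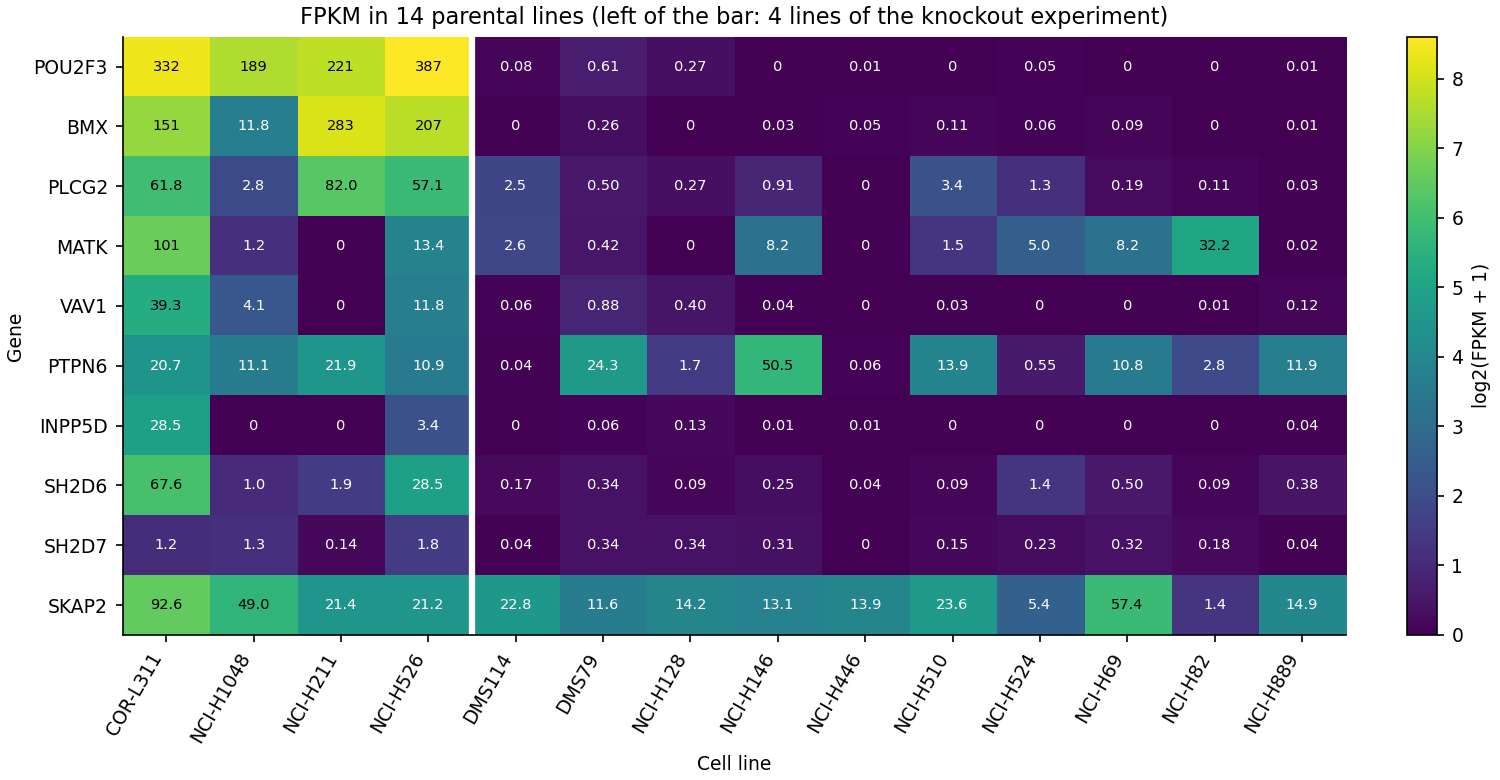
Levels of POU2F3 and the 9 genes in 14 parental lines, 1 library each; rows are genes, columns are lines, the number in a cell is the FPKM and the colour is log2(FPKM + 1). BMX is at 11.8 to 283 FPKM in the 4 lines left of the white bar and at most 0.259 in the 10 lines right of it, while NCI-H211 lists MATK, VAV1 and INPP5D at 0.

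BMX, the TEC family kinase of the set, separated the 2 groups of parental lines completely. It stood at 283 FPKM in NCI-H211, 207 in NCI-H526, 151 in COR-L311 and 11.8 in NCI-H1048, against a range of 0 to 0.259 with a median of 0.0383 in the 10 other lines. NCI-H1048 was the low one of the 4, but still above every other line. The log2 difference was 6.61 ± 0.58 (SE, 4 lines against 10), with a limma Benjamini-Hochberg adjusted p of 8.55e-06 over 13226 genes. BMX passed the filter on low values only through the 4 lines in which it was high. An exact two-sided permutation test over all 1001 assignments of lines gave p = 0.000999, the smallest that this design allows. BMX and the other genes of the list were chosen with earlier results of these data known. The p-values given for them here and in the parental paragraphs below are therefore descriptions.

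PLCG2, the phospholipase C gamma of blood cells, was also higher in the 4 lines. It stood at 82 FPKM in NCI-H211, 57.1 in NCI-H526, 61.8 in COR-L311 and 2.80 in NCI-H1048, against 0 to 3.37 in the 10 others, with a median of 0.384. NCI-H1048 lay within the range of the 10 others, below NCI-H510, and the other 3 lines lay above all 10. The log2 difference was 4.29 ± 0.68 (SE), with a limma adjusted p of 0.00644. Of the 9 genes 6 were tested and 2 passed with a higher level in the 4 lines, where 0.212% of all genes tested did. Both passed the filter only with the help of the 4 lines and 3 of the 9 genes fell below it, so this count is a description. All 4 lines lay above all 10 for 1 of the 9 genes, BMX, which is 1 of the 6 tested, against 0.401% of all genes tested.

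SH2D6, an SH2 adaptor seen in tuft cells, was uneven among the 4 lines. It stood at 1.90 FPKM in NCI-H211, 28.5 in NCI-H526, 67.6 in COR-L311 and 1.04 in NCI-H1048, against 0.0446 to 1.45 in the 10 others. COR-L311, NCI-H526 and, narrowly, NCI-H211 lay above all 10, and NCI-H1048 lay below NCI-H524. The log2 difference of 3.01 ± 0.70 (SE) missed the threshold over all genes, with a limma adjusted p of 0.0998, while the exact permutation test on this gene alone gave p = 0.001998. Without NCI-H1048 it passed, at 3.80 and an adjusted p of 0.0139, as it did without NCI-H211, at 3.63 and 0.0380. It did not without COR-L311, at 2.11 and 0.279, or without NCI-H526, at 2.51 and 0.322. SH2D6 reached an FPKM of 1 in all 4 lines and in 1 of the 10 others. It therefore passed the filter only with the help of the 4 lines, also in these refits. SH2D7, which also has an SH2 domain, was low everywhere. It stood at 0.140 FPKM in NCI-H211, 1.83 in NCI-H526, 1.16 in COR-L311 and 1.26 in NCI-H1048, against at most 0.337 in the 10 others. NCI-H211 lay inside the range of the 10 others and the other 3 lines above it.

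VAV1 and INPP5D were found in some of the 4 lines only. VAV1 stood at 39.3 FPKM in COR-L311, 4.10 in NCI-H1048 and 11.8 in NCI-H526, with 0 listed for NCI-H211, against at most 0.875 in the 10 others. INPP5D stood at 28.5 FPKM in COR-L311 and 3.41 in NCI-H526, with 0 listed for NCI-H1048 and NCI-H211, against at most 0.130 in the 10 others. The exchange factor was thus present in 3 of the 4 lines, and the lipid phosphatase in 2. VAV1, INPP5D and SH2D7 did not reach an FPKM of 1 in 4 of the 14 libraries and were not tested in the main fit. Exact permutation tests gave p = 0.01099 for VAV1, 0.06593 for INPP5D and 0.007992 for SH2D7. With no filter their limma adjusted p were 0.171, 0.523 and 0.171. These p-values too are descriptions, since the genes were chosen with earlier results of these data known.

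MATK, PTPN6 and SKAP2 were expressed well outside the lines with POU2F3. MATK stood at 101 FPKM in COR-L311, 1.24 in NCI-H1048 and 13.4 in NCI-H526, with 0 listed for NCI-H211, against 0 to 32.2 in the 10 others. NCI-H82 held the second highest level of MATK, above NCI-H526, and the order of the lines below COR-L311 mixed both groups. The log2 difference of MATK was 1.14 ± 1.10 (SE, limma adjusted p = 0.835), and without COR-L311 it was -0.11.

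PTPN6 stood at 21.9 FPKM in NCI-H211, 10.9 in NCI-H526, 20.7 in COR-L311 and 11.1 in NCI-H1048, against 0.0384 to 50.5 in the 10 others. The 4 lines lay close together, while the 10 others ran from near 0 in DMS114 and NCI-H446 to the highest level in NCI-H146. The SD of log2(FPKM + 1) was 0.52 over the 4 lines and 2.0 over the 10 others, and the log2 difference of 1.47 ± 0.92 (SE) had a limma adjusted p of 0.712.

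SKAP2 was the 1 gene of the 9 with an FPKM of at least 1 in every parental line. It stood at 21.4 FPKM in NCI-H211, 21.2 in NCI-H526, 92.6 in COR-L311 and 49.0 in NCI-H1048, against 1.44 to 57.4 in the 10 others. NCI-H69 lay between COR-L311 and NCI-H1048, and the log2 difference of 1.46 ± 0.62 (SE) had a limma adjusted p of 0.519.

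After knockout of POU2F3, BMX, PLCG2, SH2D6, SH2D7 and SKAP2 were lower in sgPOU2F3 than in sgNeg cells in 4 of 4 lines, while MATK and VAV1 were lower in 3, INPP5D in 2 and PTPN6 in 1. That is 5 of 9 genes lower in every line, where 12.9% of the 12387 genes tested were. None of the 9 passed an adjusted p of 0.05 in the limma fit across lines, where 0.0161% of all genes did. Those were 2 genes called higher, and 0 genes were called lower. At an unadjusted p under 0.05, 5 of the 9 were lower, and 7.08% of all genes were. The 9 genes were chosen with earlier results of these data known, so these counts, and those within single lines below, are descriptions. The median log2 ratio of the 9 was -0.67, and that of all genes tested was -0.02.

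**Figure D2:**
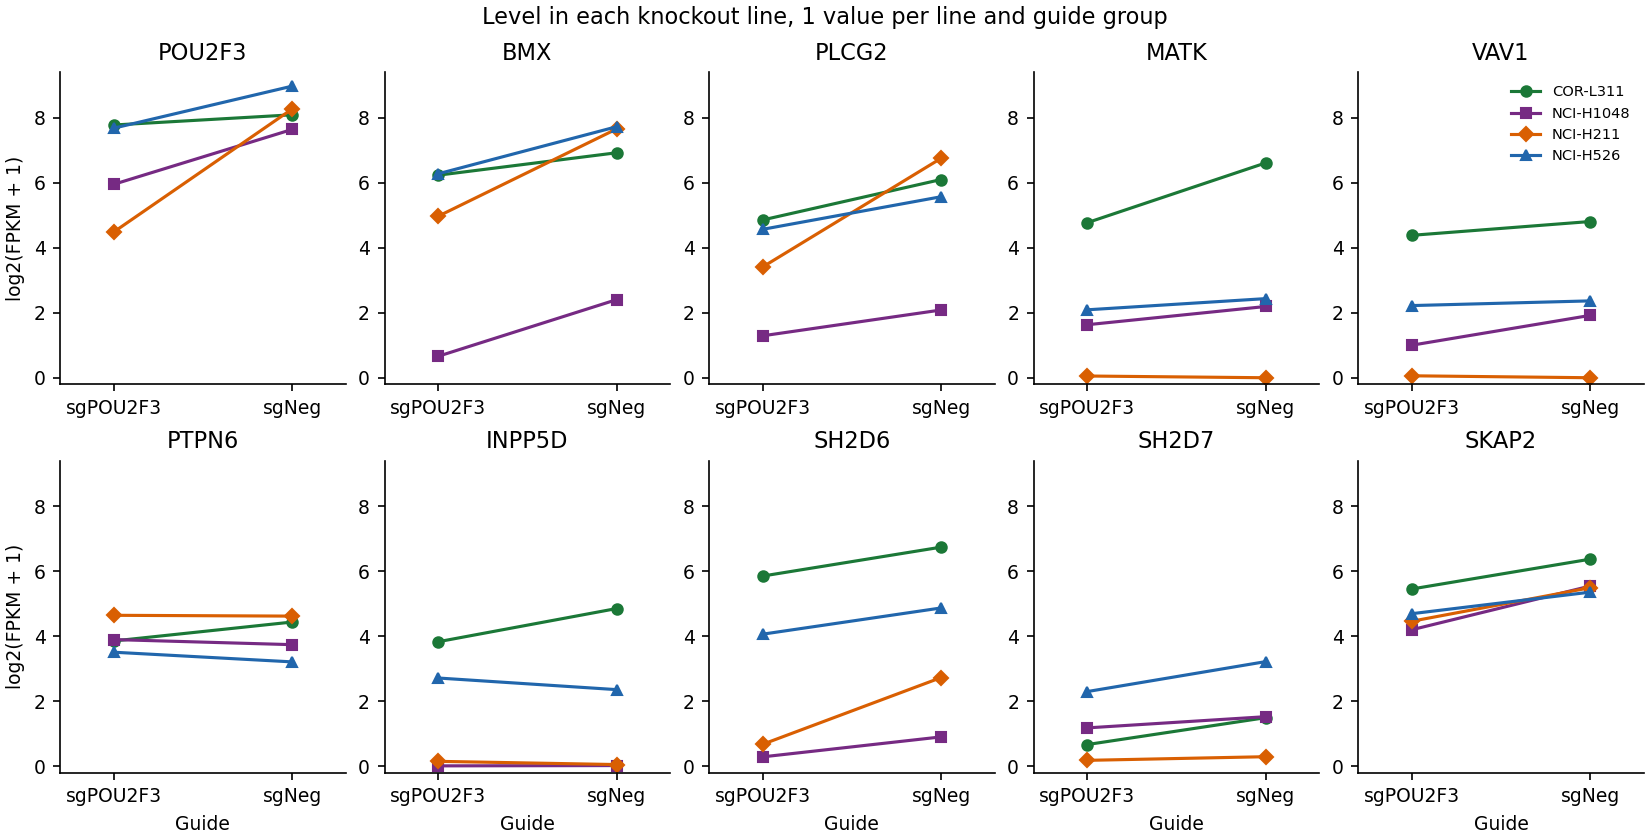
Levels of POU2F3 and the 9 genes in the knockout experiment, as log2(FPKM + 1) on the vertical axis; each line of colour joins the sgPOU2F3 value and the sgNeg value of 1 cell line. BMX ends at 0.580 FPKM in sgPOU2F3 cells of NCI-H1048 and at 76.4 in those of NCI-H526, and the lines for PTPN6 are nearly level.

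BMX stood in sgPOU2F3 cells at 30.3 FPKM in NCI-H211, 76.4 in NCI-H526, 74.2 in COR-L311 and 0.580 in NCI-H1048, and in sgNeg cells at 201 FPKM in NCI-H211, 210 in NCI-H526, 120 in COR-L311 and 4.29 in NCI-H1048. The sgPOU2F3 value was 15.1% of the sgNeg value in NCI-H211, 36.3% in NCI-H526, 61.7% in COR-L311 and 13.5% in NCI-H1048. The share was lowest in NCI-H1048 and NCI-H211 and highest in COR-L311. That of POU2F3 itself was 6.95% in NCI-H211, 40.7% in NCI-H526, 80.35% in COR-L311 and 30.7% in NCI-H1048. Both were thus highest in COR-L311, but BMX was lowest in NCI-H1048 and POU2F3 in NCI-H211. Whether BMX followed POU2F3 across lines was not tested. The mean log2 ratio of BMX was -1.64 ± 0.83 (SD, n = 4 lines), with a limma adjusted p of 0.312.

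PLCG2, the enzyme downstream of BMX type kinases, stood in sgPOU2F3 cells at 9.62 FPKM in NCI-H211, 22.7 in NCI-H526, 27.9 in COR-L311 and 1.45 in NCI-H1048, and in sgNeg cells at 107 FPKM in NCI-H211, 46.5 in NCI-H526, 67.6 in COR-L311 and 3.24 in NCI-H1048. It was at least 2-fold lower on the log2(FPKM + 1) scale in COR-L311, NCI-H211 and NCI-H526. The mean log2 ratio was -1.60 ± 1.18 (SD, n = 4 lines, limma adjusted p = 0.388), and NCI-H211, at -3.35, stood apart from the other 3 lines, which lay between -1.24 and -0.79. Without NCI-H211 the mean was -1.01 and the adjusted p 0.222.

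SKAP2 had the most even ratios of the 9. It stood in sgPOU2F3 cells at 21.1 FPKM in NCI-H211, 24.9 in NCI-H526, 42.9 in COR-L311 and 17.4 in NCI-H1048, and in sgNeg cells at 44.1 FPKM in NCI-H211, 40.1 in NCI-H526, 82 in COR-L311 and 45.8 in NCI-H1048. Apart from that of COR-L311, the sgPOU2F3 values lay below all 4 sgNeg values. Its mean log2 ratio was -0.99 ± 0.28 (SD, n = 4 lines), with the smallest unadjusted p of the 9, 0.00019, and a limma adjusted p of 0.232. Its 4 ratios lay between -1.35 and -0.66, although its parental levels did not separate the 4 lines from the 10 others.

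SH2D6 stood in sgPOU2F3 cells at 0.601 FPKM in NCI-H211, 15.8 in NCI-H526, 56.9 in COR-L311 and 0.224 in NCI-H1048, and in sgNeg cells at 5.64 FPKM in NCI-H211, 28.3 in NCI-H526, 106 in COR-L311 and 0.873 in NCI-H1048. The mean log2 ratio was -1.09 ± 0.65 (SD, n = 4 lines, limma adjusted p = 0.378), with the lowest ratio, -2.05, in NCI-H211. SH2D7 stood in sgPOU2F3 cells at 0.136 FPKM in NCI-H211, 3.92 in NCI-H526, 0.591 in COR-L311 and 1.27 in NCI-H1048, and in sgNeg cells at 0.228 FPKM in NCI-H211, 8.33 in NCI-H526, 1.82 in COR-L311 and 1.88 in NCI-H1048. Both SH2 adaptors were therefore lower in every line, but the NCI-H211 values of SH2D7 are near the worth of a few fragments, and its mean log2 ratio was -0.55 ± 0.39 (SD, n = 4 lines, limma adjusted p = 0.402).

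The blood-type genes found in fewer lines behaved differently from line to line. MATK stood in sgPOU2F3 cells at 0.0378 FPKM in NCI-H211, 3.26 in NCI-H526, 26.3 in COR-L311 and 2.10 in NCI-H1048, and in sgNeg cells at 0 FPKM in NCI-H211, 4.41 in NCI-H526, 96.7 in COR-L311 and 3.57 in NCI-H1048. COR-L311, where it was most abundant, had a log2 ratio of -1.84, and NCI-H211 was at or near 0 in both groups. VAV1 stood in sgPOU2F3 cells at 0.0425 FPKM in NCI-H211, 3.66 in NCI-H526, 19.9 in COR-L311 and 1.0 in NCI-H1048, and in sgNeg cells at 0 FPKM in NCI-H211, 4.15 in NCI-H526, 27.0 in COR-L311 and 2.78 in NCI-H1048. The mean log2 ratios were -0.67 ± 0.82 for MATK and -0.36 ± 0.42 for VAV1 (SD, n = 4 lines, limma adjusted p of 0.446 and 0.496). Without COR-L311 the mean of MATK was -0.28, and that of VAV1 was -0.17 without NCI-H1048.

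The 2 phosphatases showed no common direction. INPP5D stood at 13.3 FPKM in sgPOU2F3 and 27.9 in sgNeg cells of COR-L311 and at 5.58 in sgPOU2F3 and 4.13 in sgNeg cells of NCI-H526, and was at or below 0.112 in both groups of NCI-H1048 and NCI-H211. The lipid phosphatase was therefore lower in COR-L311, with a log2 ratio of -1.02, and higher in NCI-H526, with 0.36. PTPN6 stood in sgPOU2F3 cells at 24.1 FPKM in NCI-H211, 10.4 in NCI-H526, 13.5 in COR-L311 and 13.9 in NCI-H1048, and in sgNeg cells at 23.6 FPKM in NCI-H211, 8.28 in NCI-H526, 20.7 in COR-L311 and 12.4 in NCI-H1048. The mean log2 ratios were -0.14 ± 0.61 for INPP5D and -0.03 ± 0.39 for PTPN6 (SD, n = 4 lines, limma adjusted p of 0.826 and 0.963). The mean of INPP5D was -0.22 without NCI-H211, and for PTPN6 the mean turned positive, at 0.16, without COR-L311 and after quantile normalization, at 0.008.

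Within single lines, size alone was counted on log2(FPKM + 1), since 1 value per group allows no test. In COR-L311 the genes at least 2-fold lower were 3 of the 9, PLCG2, MATK and INPP5D, against 1.92% of all genes tested. In NCI-H1048 they were 2, BMX and SKAP2, against 0.783%. Several of the 9 are low in NCI-H1048, and at a pseudocount of 0.1 its count was 5. In NCI-H211 they were 4, BMX, PLCG2, SH2D6 and SKAP2, against 4.26%, and in NCI-H526 they were 2, BMX and PLCG2, against 0.388%. None of the 9 was 2-fold higher in any of the 4 lines. Whether the ratios differ between lines could not be tested either.

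**Figure D3:**
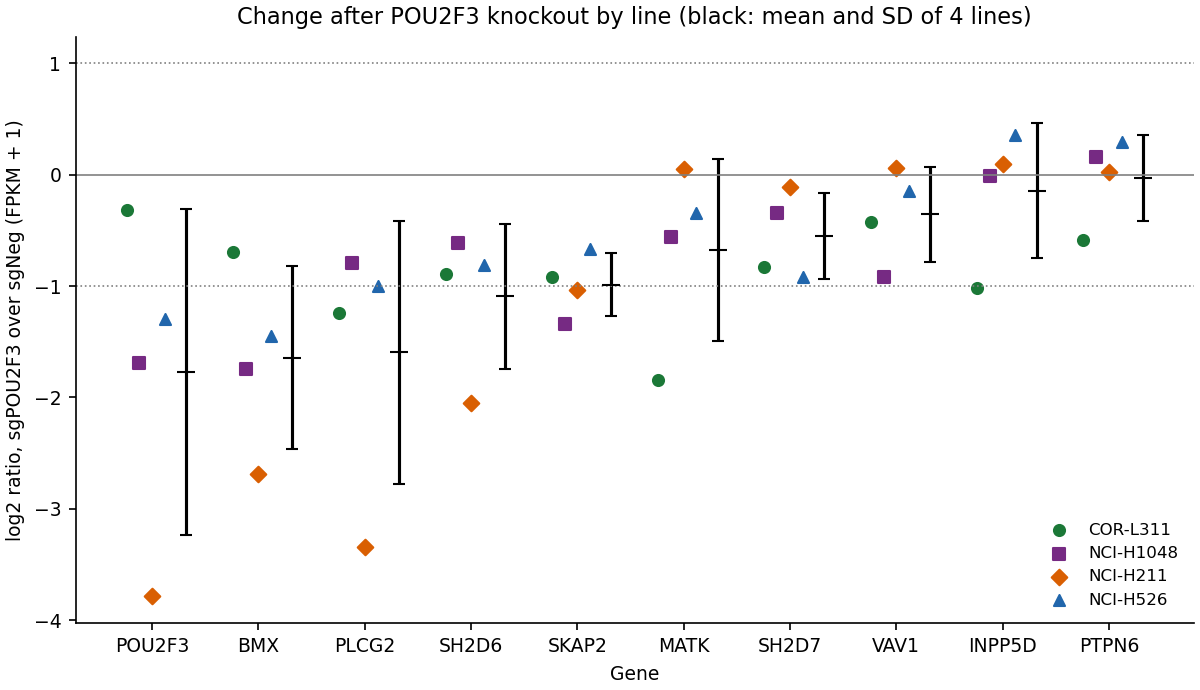
Log2 ratio of sgPOU2F3 over sgNeg on log2(FPKM + 1), by gene on the horizontal axis, ordered by the mean; each coloured point is 1 line, the black bar is the mean and SD of 4 lines, and dotted lines mark a 2-fold change. SKAP2 has the narrowest SD, 0.28, and for BMX, PLCG2, SH2D6, SKAP2 and SH2D7 all 4 points lie below 0.

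The sgNeg cells were compared with the parental library of the same line to see how well the levels before knockout repeat. The tables were normalized separately, so these are descriptions. Of the 36 pairs of gene and line, 26 lay within 0.5 on the log2 scale and 29 within 1, with a median distance of 0.26. These counts include pairs near 0 in both libraries, which lie close on log2(FPKM + 1) in any case. Examples are MATK and VAV1 in NCI-H211 and INPP5D in NCI-H1048 and NCI-H211. The largest distance was for SH2D7 in NCI-H526, with 8.33 FPKM in sgNeg cells, 1.83 in the parental library and 3.92 in sgPOU2F3 cells. SKAP2 in NCI-H211 stood at 44.1 in sgNeg cells and 21.4 in the parental library. Its sgPOU2F3 value of 21.1 was close to the parental level. In NCI-H526 SKAP2 stood at 40.1 in sgNeg cells, 21.2 in the parental library and 24.9 in sgPOU2F3 cells. In COR-L311 and NCI-H1048 its sgPOU2F3 values of 42.9 and 17.4 lay below the parental 92.6 and 49.0. SH2D6 in NCI-H211 stood at 5.64 in sgNeg cells, 1.90 in the parental library and 0.601 in sgPOU2F3 cells. BMX in NCI-H1048 stood at 4.29 in sgNeg cells and 11.8 in the parental library, a distance of -1.28, as large as some knockout ratios.

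Most of these genes have a relative used in many tissues, and the share of the blood-type form in their summed FPKM was computed for each library. PLCG1, the widely expressed phospholipase C gamma, stood in sgPOU2F3 cells at 43.1 FPKM in NCI-H211, 44.1 in NCI-H526, 62.6 in COR-L311 and 38.3 in NCI-H1048, and in sgNeg cells at 54.2 FPKM in NCI-H211, 43.2 in NCI-H526, 54.8 in COR-L311 and 35.9 in NCI-H1048. PLCG2 made up 3.64% to 34.0% of the summed FPKM of both enzymes in sgPOU2F3 cells and 8.30% to 66.3% in sgNeg cells, and the share was lower in sgPOU2F3 in each line. In parental cells it was 5.52% to 63.2% in the 4 lines, with NCI-H1048 lowest, and 0% to 7.70% in the 10 others.

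**Figure D4:**
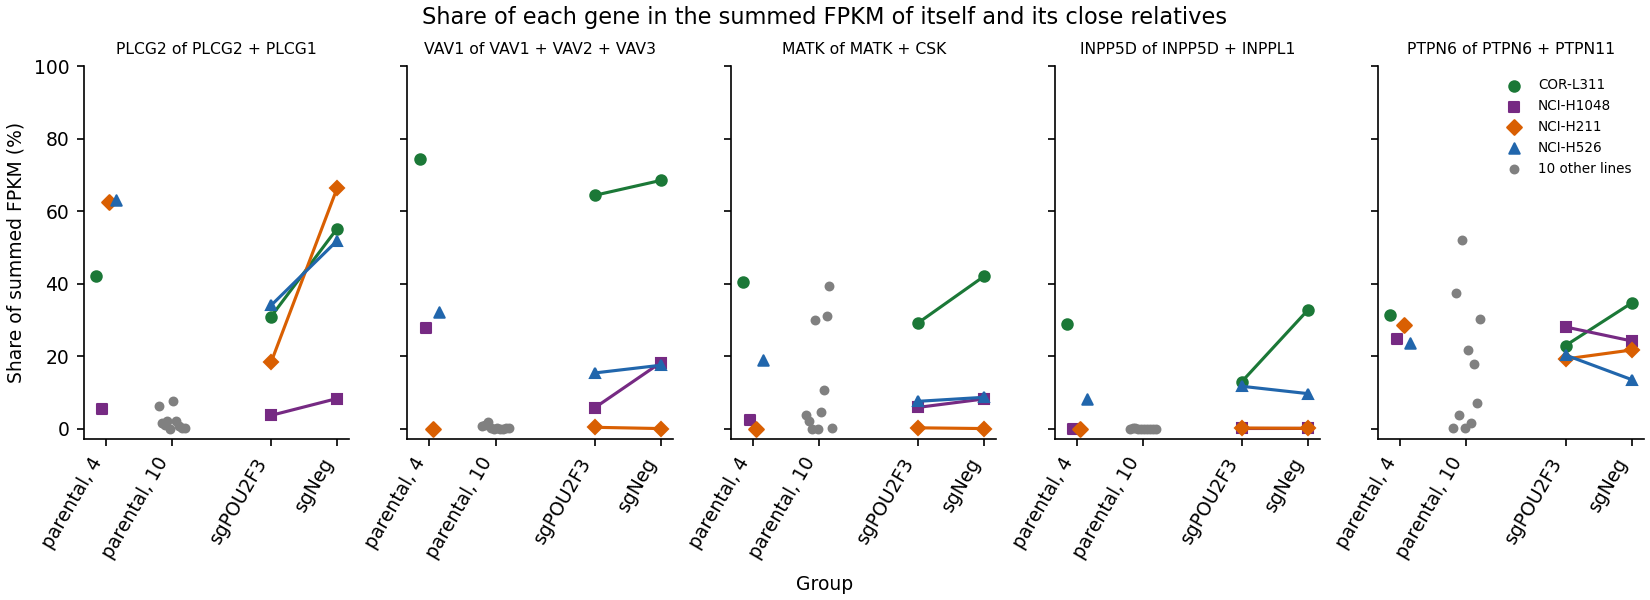
Share, in percent, of each gene in the summed FPKM of itself and its close relatives, for the 4 and the 10 parental lines and for sgPOU2F3 and sgNeg cells; coloured points are the 4 lines, grey points the 10 others, and coloured segments join the 2 knockout groups of a line. The PLCG2 share is lower in sgPOU2F3 than in sgNeg cells in each line, and the VAV1 share in COR-L311 is 64.4% in sgPOU2F3 and 68.5% in sgNeg cells.

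BMX made up 95.4% to 99.9% of the summed FPKM of BMX and its TEC family relatives TEC, BTK and TXK in the 4 lines and 0% to 58.4% in the 10 others, whose summed level of these 3 relatives was at most 5.68 FPKM. BMX was thus nearly the whole of this sum in the 4 lines, and its share in sgPOU2F3 cells of NCI-H1048 was 48.3%, where the level of BMX was 0.580 FPKM. VAV1 was 74.4% of the VAV family in parental COR-L311, 27.9% in NCI-H1048, 32.1% in NCI-H526 and 0% in NCI-H211, against at most 1.71% in the 10 others. MATK reached 40.5% of MATK and CSK in the 4 lines and 39.5% in the 10 others, and INPP5D reached 28.8% of INPP5D and INPPL1 in the 4 lines and 0.231% in the 10 others.

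Of 19 relatives, 10 were tested after knockout and 0 passed in the limma fit, with 1 lower and 1 higher at an unadjusted p under 0.05. Their median log2 ratio was -0.01, and 1 of the 10 was lower in 4 of 4 lines, CSK, the widely expressed kinase related to MATK, at -0.56 ± 0.41 (SD, n = 4 lines, adjusted p = 0.397). INPPL1, the relative of INPP5D, stood at 0.32 ± 0.22 (adjusted p = 0.403). In COR-L311 3 of the 10 tested relatives were at least 2-fold lower, CSK, SH2D2A and SH2D3A, beside 3 of the 9 genes. In each of the other lines the count of relatives was 0. In parental cells 13 relatives were tested and 0 passed by limma.

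Transcripts of the partners of these genes in immune receptor signalling reached an FPKM of 1 in all 4 parental lines for 13 of 35 genes. Of these 35 partners (Src family kinases, SYK, adaptors and CBL proteins), 19 were tested after knockout and 0 passed by limma, with 1 lower and 3 higher at an unadjusted p under 0.05, 0 lower in 4 of 4 lines and a median log2 ratio of 0.01. The smallest p belonged to CBLB, a ubiquitin ligase that restrains receptor signals, at 0.55 ± 0.37 (SD, n = 4 lines, adjusted p = 0.397). SRC and SYK stood at 0.28 and 0.45 (adjusted p of 0.408 and 0.424).

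Of 36 effectors of calcium, diacylglycerol and PI3K signalling, 23 were tested after knockout and 0 passed by limma, with 1 lower and 2 higher at an unadjusted p under 0.05, 3 lower in 4 of 4 lines and a median log2 ratio of -0.05. PIK3R5, the regulatory subunit of the leukocyte PI3K gamma, was the lower one. It stood in sgPOU2F3 cells at 0.595 FPKM in NCI-H211, 6.31 in NCI-H526, 29.6 in COR-L311 and 0.336 in NCI-H1048, and in sgNeg cells at 8.82 FPKM in NCI-H211, 13.5 in NCI-H526, 72.4 in COR-L311 and 1.09 in NCI-H1048. Its mean log2 ratio was -1.38 ± 0.87 (SD, n = 4 lines, adjusted p = 0.378), a size between those of SH2D6 and PLCG2. In parental cells PIK3R5 and its catalytic partner PIK3CG were higher in all 4 lines than in all 10 others. PIK3R5 stood at 0.871 to 39.5 FPKM against at most 0.365, and PIK3CG at 0.0747 to 5.12 against at most 0.0239. That is 2 of the 36 effectors listed. The share of 0.401% given above covers only genes that passed the filter, so the 2 cannot be set against it. Both fell below the filter of the test, and the lowest PIK3CG level of the 4, in NCI-H526, is near the worth of a few fragments. TRPM5, the cation channel of tuft cells opened by calcium, had a log2 difference of 4.14 ± 0.88 (SE, limma adjusted p = 0.0658) between the 4 and the 10.

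**Figure D5:**
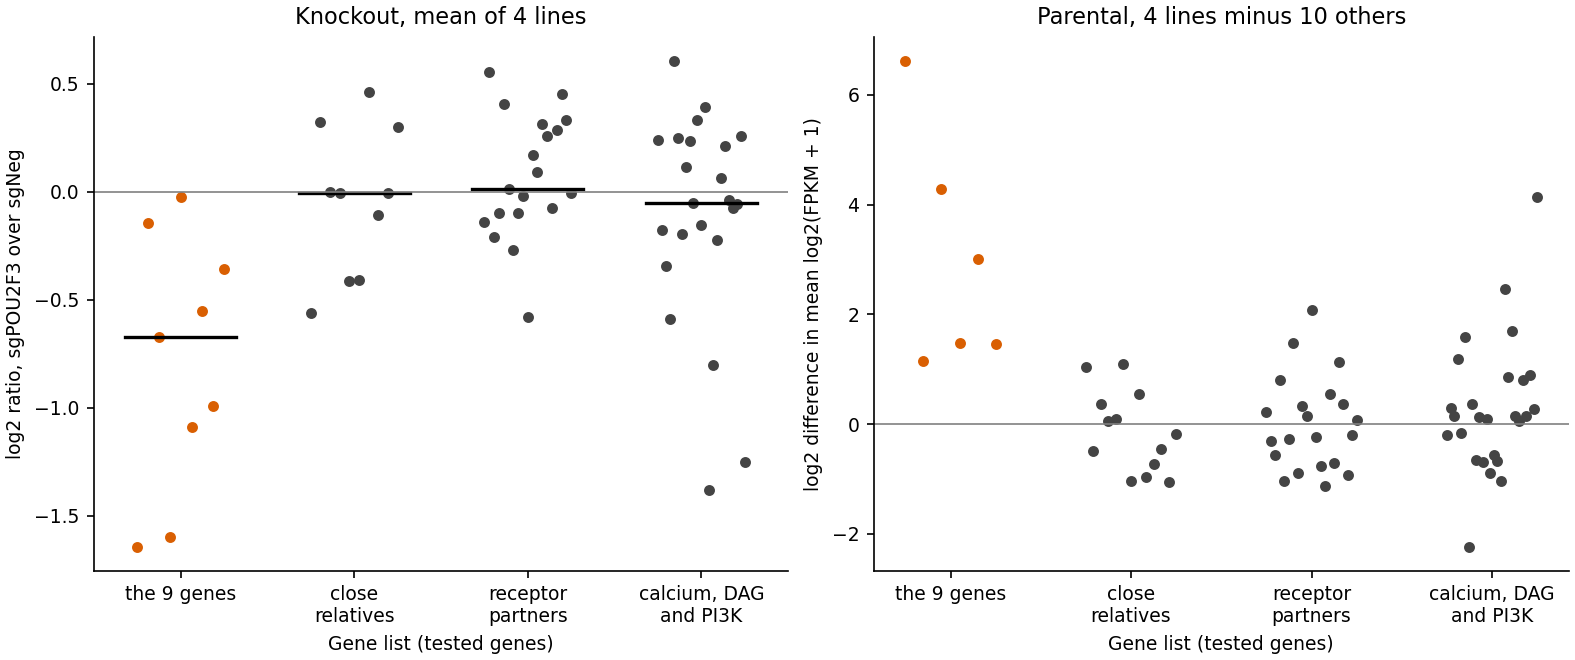
Left, mean log2 ratio of sgPOU2F3 over sgNeg across 4 lines for each tested gene of 4 lists, with black bars at the list medians; right, log2 difference between the 4 and the 10 parental lines for each tested gene. On the left the medians are -0.67 for the 9 genes, -0.01 for close relatives, 0.01 for receptor partners and -0.05 for effectors; on the right 6 of the 9 genes are drawn, since 3 fell below the filter.

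Of 15 tuft cell markers tested after knockout, POU2F3 among them, 11 were lower in 4 of 4 lines, with a median log2 ratio of -1.33, and 0 passed by limma, with 10 lower at an unadjusted p under 0.05. In COR-L311 4 of the 15 were at least 2-fold lower and 2 at least 2-fold higher. In each of the other lines 0 were 2-fold higher. In parental cells 7 of 14 tested passed with a higher level in the 4 lines, where 0.212% of all genes tested did. All 4 lines lay above all 10 for 8 of the 17 listed, and for 0.401% of all genes tested. The latter share covers only genes that passed the filter, while the 17 include markers that did not. The list holds POU2F3, the gene that sets the 4 lines apart, and was chosen with earlier results of these data known. A marker silent in the 10 others passes the filter only through the 4 lines, so these counts are descriptions. Not all markers followed BMX: ALOX5 was 2.44 FPKM in NCI-H211 and 15.4 in DMS79. Over 14 leukocyte markers the summed FPKM was 1.47 to 4.33 in the 4 parental lines and 1.15 to 27.5 in the 10 others, and 2.67 to 9.19 in sgPOU2F3 and 2.64 to 6.97 in sgNeg cells. The pan-leukocyte marker PTPRC was at most 0.161 FPKM in the 4 parental lines, and the T cell genes CD3D and CD3E and the B cell gene MS4A1 were listed at 0 in all 4. An FPKM of 1 was reached by 2 of the 14 in any of the 4 parental lines, CD14 with up to 2.40 and the B cell gene CD79A with up to 2.25. In the knockout columns 4 of the 14 reached it. CD79A stood at 3.28 FPKM in sgPOU2F3 and 1.21 in sgNeg cells of COR-L311 and at 3.07 in sgPOU2F3 and 0.967 in sgNeg cells of NCI-H526. CD14 was at most 2.01 in sgPOU2F3 and 4.32 in sgNeg cells. CD33 reached 1.07 in sgNeg cells of COR-L311, and LYZ stood at 6.04 in sgPOU2F3 and 0.514 in sgNeg cells of NCI-H211. In the 10 others 5 of the 14 reached an FPKM of 1, with CD33 up to 25.7 in NCI-H889 and CD79A up to 12.6 in DMS79. SPI1, which encodes PU.1, was 0.148 to 0.247 FPKM in the 4 lines. The part of tuft cell or leukocyte markers in the ratios of the 9 was not tested.

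The genes whose levels followed each of the 6 filtered genes most closely over the 14 parental lines were taken by Pearson correlation of log2(FPKM + 1) among 13226 genes. For BMX these were C11orf53 (0.98), the tuft cell factor ASCL2 (0.97) and the tuft cell marker RGS13 (0.96). For PLCG2 they were CNIH3 (0.96), ASCL2 (0.96) and BMX itself (0.95), and for SH2D6 they were PSD2 (0.95), PTGS1 (0.95) and GRASP (0.91). Genes that followed BMX and PLCG2 thus overlap, as both separate most of the 4 lines from the 10. For MATK they were RASGRF2 (0.86), TTC12 (0.86) and FAM78B (0.85), for PTPN6 ZNF165 (0.90), ANO9 (0.89) and MAPK13 (0.87), and for SKAP2 HOXA3 (0.84), RFFL (0.83) and PCNX3 (0.81). The values describe 14 libraries in 2 clusters and carry no test.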

How the data were processed

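PolyA RNA was sequenced from TruSeq v2 libraries, per the labels' protocols. The authors deposited FPKM values in 5 tables, of which 4 hold a knockout line each and 1 holds all parental lines, where the labels say RPKM. The submitters' processing notes name TopHat2, Cufflinks, Cuffdiff and the build hg19. Versions, annotation and the way both POU2F3 guides became 1 column are not given in the sources used here. Tables were normalized separately. All columns were used.

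Values were taken as log2(FPKM + 1) and fitted with limma 3.58.1 in R 4.3.3, with a variance trend and Benjamini-Hochberg adjustment over all genes at a threshold of 0.05. The knockout fit had terms for line and guide group (3 residual degrees of freedom) and kept genes that reached an FPKM of 1 in 4 or more of 8 values. Pairing comes from the line. The parental fit set 4 lines against 10 and kept genes that did so in 4 or more of 14. Within a line a log2 ratio of at least 1 in size counted as 2-fold. P-values measure the spread between lines. The fits were tested on simulated data. Depth was estimated from the steps between low FPKM values, with transcript lengths from another build, and is rough, so no counting intervals are given. The named genes are the 9, POU2F3, up to 4 genes per further list by smallest p, markers, and the 3 genes most like each gene in level; the other genes named were chosen after their values were seen. The 9 genes and the lists were chosen with earlier results of these data known. Alternatives were another filter, pseudocount, scaling and variance model, no line term, and each line left out. Some genes that this rule takes are left out of the text.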

Additional observations from a re-analysis of the deposited data

Results flagged for a closer look

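In 27 groups of 4 or 10 values checked on the log2(FPKM + 1) scale, 5 samples lay farther from the rest than Dixon's 95% critical value allows. For normally distributed values chance flags about 1 in 20 groups. Levels near 0 FPKM are bounded at 0, so that rate need not hold for them, and whether 5 of 27 exceeds chance was not tested. In the 4 parental lines with POU2F3, PLCG2 was far lower in NCI-H1048, at 2.80 FPKM, than in the other 3. In the 10 other lines, BMX was highest in DMS79, at 0.259 FPKM, as was VAV1, at 0.875 FPKM. DMS79 also had the highest POU2F3 of the 10, at 0.608 FPKM. In the same 10 lines INPP5D was highest in NCI-H128, at 0.130 FPKM, and SH2D6 in NCI-H524, at 1.45 FPKM. These levels in DMS79, NCI-H128 and NCI-H524 are low, and each rests on 1 library.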

How the results depend on the processing

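The number of genes past the threshold after knockout, 2 over all genes, was 0 to 1 with 1 line left out, 0 with no filter, 0 with a pseudocount of 0.1, 0 without the variance trend, 1 after quantile normalization and 0 with no replicate block, that is without the line as a pairing term. None of the 9 genes passed in any of these fits in which it was tested. Of 93 refitted knockout values of the 9 genes, 91 kept their direction and side of the threshold and 2 turned, both for PTPN6, which ranged between -0.13 and 0.16 with 1 line left out and stood at 0.008 after quantile normalization; the cause was not tested. With ratios centred on the median of all tested genes, an alternative chosen after seeing the data, 5 of the 9 genes were lower in 4 of 4 lines, as without centring. At a pseudocount of 0.1, 5 of the 9 were 2-fold lower in NCI-H1048 in place of 2. In parental cells 33 genes passed, 28 higher and 5 lower, and 26 to 55 with 1 of the 4 lines left out. Of the 9, 2 passed, 1 with a filter at an FPKM of 5, under which PLCG2 was not tested, and 2 to 4 with 1 line left out, SH2D6 joining without NCI-H1048 and SH2D6 and VAV1 without NCI-H211, the line in which VAV1 is listed at 0 and without which VAV1 passed the filter through the other 3 lines. MATK ranged between -0.11 and 2.12 over the parental alternatives. Of 58 refitted parental values, 55 kept their call, 2 of SH2D6 passed where the main value had not, and 1, of MATK, turned. The exact permutation test of SH2D6, unadjusted, gave p = 0.001998, a description for a gene chosen with earlier results of these data known. With 1 value per line and guide group, the spread between guides or cultures is unknown, and values below about 0.05 FPKM are near 1 fragment.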
